A study of Mus musculus with 3 samples.

Results

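The mouse genome holds a large family of genes named Zfp followed by a number, and the members described here are those numbered from Zfp900 to Zfp999. They were chosen by symbol alone, as protein-coding RefSeq genes on chromosomes 1 to 19 and X, which gave 62 of 21627 genes, with numbers from Zfp930 to Zfp996. Foxp3, the forkhead protein that defines regulatory T cells, had been mapped in bone marrow-derived macrophages (BMDMs), cells cultured from mouse marrow in M-CSF-conditioned medium. The assay was CUT&RUN, in which an antibody tethers a nuclease to its target in permeabilised cells and the DNA fragments cut free are sequenced. The cells had been lightly fixed with formaldehyde. The single group used here is Foxp3, with 2 libraries named replicate 1 and replicate 2. A library made with an isotype IgG was not used here, so no level of background from a control antibody stands beside any value. The labels state neither the strain, genotype, age and sex of the mice nor whether the replicates came from separate cultures, so the spread between them may be technical. The series title mentions damage-associated molecules from brain, and the labels do not say which libraries were exposed to them. Peak lists carry no RNA levels, so the macrophage identity of the cells was not checked against marker genes.

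Many genes of this family encode proteins with C2H2 zinc fingers, small folds that each hold a zinc ion and together read a DNA sequence. A large share of them also carry a KRAB domain, which recruits the corepressor Trim28 and, through it, the histone methyltransferase Setdb1 and DNA methylation to transposable elements. The genes multiply by tandem duplication, so they lie in clusters whose members resemble each other, and rodents hold many that other mammals lack. Of the members, Zfp932 is known to silence endogenous retroviruses, Zfp979 carries the synonym Ssm1b, a strain-specific modifier of transgene methylation, and Zfp982 has been linked to the embryonic stem cell state.

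The 62 genes lay on 13 chromosomes, with 14 on chromosome 4, 13 on chromosome 17, 10 on chromosome 2 and 9 on chromosome 7. Of these, 44 were clustered, meaning that at least 1 other protein-coding gene with a symbol of Zfp plus digits lay within 100 kb, and 18 were isolated. Related genes under other symbols were not counted, so isolated means only without a neighbour of that name. The median gene length was 23256.5 bp. RefSeq promoters (GRCm38.p6, the same coordinates as mm10), which run from 250 bases before to 50 bases after a start, were matched for 55 of the 62 members.

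Of these promoters, 6 are shown because the results below turn on them. The first is that of the member with the strongest peaks, the next 2 are copies of each other on chromosome 17 that held peaks in both replicates, and the last 3 are copies on chromosome 2 with no peak over them. Capitals mark CG, the dinucleotide that cytosine methylation uses and that CpG islands are rich in.
Zfp963, chr8:69749913-69750212, minus strand: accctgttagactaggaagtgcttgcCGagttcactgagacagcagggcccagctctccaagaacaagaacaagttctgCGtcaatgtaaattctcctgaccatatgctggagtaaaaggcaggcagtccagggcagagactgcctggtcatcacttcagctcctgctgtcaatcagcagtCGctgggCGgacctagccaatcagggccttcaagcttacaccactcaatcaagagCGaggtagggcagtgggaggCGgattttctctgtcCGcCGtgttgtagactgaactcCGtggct
Zfp942, chr17:21962415-21962714, minus strand: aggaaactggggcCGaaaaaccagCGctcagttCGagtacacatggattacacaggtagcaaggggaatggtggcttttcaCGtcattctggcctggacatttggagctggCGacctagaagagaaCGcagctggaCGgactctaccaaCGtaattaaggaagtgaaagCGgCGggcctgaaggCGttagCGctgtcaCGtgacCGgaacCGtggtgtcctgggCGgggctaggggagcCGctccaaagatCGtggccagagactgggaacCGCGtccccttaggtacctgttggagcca
Zfp944, chr17:22361351-22361650, minus strand: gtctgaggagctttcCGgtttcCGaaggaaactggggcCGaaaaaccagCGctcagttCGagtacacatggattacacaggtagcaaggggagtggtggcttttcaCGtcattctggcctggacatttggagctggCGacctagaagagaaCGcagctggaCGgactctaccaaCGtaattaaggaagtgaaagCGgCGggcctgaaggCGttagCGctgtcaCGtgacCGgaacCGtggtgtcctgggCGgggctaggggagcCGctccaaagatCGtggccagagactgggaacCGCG
Zfp968, chr2:175372186-175372485, plus strand: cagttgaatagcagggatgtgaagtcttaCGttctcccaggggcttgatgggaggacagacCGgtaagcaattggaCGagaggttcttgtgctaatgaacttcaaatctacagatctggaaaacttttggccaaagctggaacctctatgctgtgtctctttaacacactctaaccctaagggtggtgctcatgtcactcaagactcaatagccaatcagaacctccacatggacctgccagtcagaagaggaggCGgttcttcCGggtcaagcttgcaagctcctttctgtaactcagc
Zfp973, chr2:176670272-176670571, plus strand: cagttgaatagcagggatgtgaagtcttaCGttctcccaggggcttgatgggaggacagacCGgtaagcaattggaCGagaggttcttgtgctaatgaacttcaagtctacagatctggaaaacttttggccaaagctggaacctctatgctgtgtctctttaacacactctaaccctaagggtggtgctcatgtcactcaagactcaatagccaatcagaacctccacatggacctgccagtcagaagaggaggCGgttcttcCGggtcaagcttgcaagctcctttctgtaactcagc
Zfp966, chr2:175931051-175931350, minus strand: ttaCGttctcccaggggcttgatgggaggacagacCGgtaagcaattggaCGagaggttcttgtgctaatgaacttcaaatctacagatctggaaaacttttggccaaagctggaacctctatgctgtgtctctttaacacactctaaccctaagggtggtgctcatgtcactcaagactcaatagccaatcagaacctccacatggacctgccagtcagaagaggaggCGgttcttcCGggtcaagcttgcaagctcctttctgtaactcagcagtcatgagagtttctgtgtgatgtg

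The Zfp963 promoter held 9 CG, the Zfp942 promoter 20 and the Zfp944 promoter 22. The longest stretch that the last 2 share is 207 bases. On chromosome 2, the promoters of Zfp968, Zfp973 and Zfp966 held 5 CG each. Those of Zfp968 and Zfp973 differed at 1 position, A106G, counted from 1 at the first printed base, and the longest stretch shared by Zfp968 and Zfp966 was 274 bases. The promoter of Zfp967 was identical to that of Zfp966 at all 300 positions.

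Replicate 1 held 33294105 fragments and 556535 peaks, and replicate 2 held 34898401 fragments and 95135 peaks, per the file headers and the lists themselves. A gene has a site here if any peak touches the 1 kb on either side of either of its ends. The strength of a site is the fold enrichment, the authors' ratio of fragments at a peak's summit (the pileup) to the background expected there in the same library, for the strongest peak in that window. With 1 group there was no comparison to test. Shares are given with 95% exact (Clopper-Pearson) binomial intervals, which cover counting error only, and genes of 1 cluster are not independent.

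Sites in replicate 2, and in both replicates, stood at a smaller share of the late-numbered zinc finger genes than of protein-coding genes in general. In replicate 1, 49 of the 62 had a site (79.0%, interval 66.8% to 88.3%), where 86.1% of all protein-coding genes did, a share inside the members' interval. In replicate 2, 29 had one (46.8%, interval 34.0% to 59.9%), where 63.3% of all genes did, above the interval. Both replicates had a site at 25 members (40.3%, interval 28.1% to 53.6%), against 62.2% of all genes, again above the interval. Leaving out 1463 olfactory and vomeronasal receptor genes, another set of large tandem clusters, of which 3.35% had a site in both replicates, raised the share of the remaining genes to 66.5%.

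The 305 other Zfp genes, which are the genes most like the members, had sites more often. They had a site in both replicates at 210 genes (68.9%, interval 63.3% to 74.0%), so the members lay 28.5 percentage points below them and 21.9 points below all genes. Per replicate the members were 13.8 points below the other Zfp genes in replicate 1 and 23.1 points below in replicate 2. The 2 intervals for both replicates did not overlap, which is a description and not a test, since neighbouring genes share sequence and peaks.

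Of the 37 members without a site in both replicates, 24 had one in replicate 1 only (38.7% of members, against 23.9% of all genes), 4 in replicate 2 only (6.45%, against 1.08%) and 9 in neither (14.5%, against 12.8%). The members' shortfall thus lay mainly in genes seen in replicate 1 alone, the list with the larger number of peaks. The share with a site in neither replicate was 9.37% over all genes without the receptor genes, of which 60.3% had none, and 6.23% over other Zfp genes (interval 3.79% to 9.56%). The members' interval, 6.86% to 25.8%, overlapped that of other Zfp genes and held the shares of all genes with and without the receptors.

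**Figure D1:**
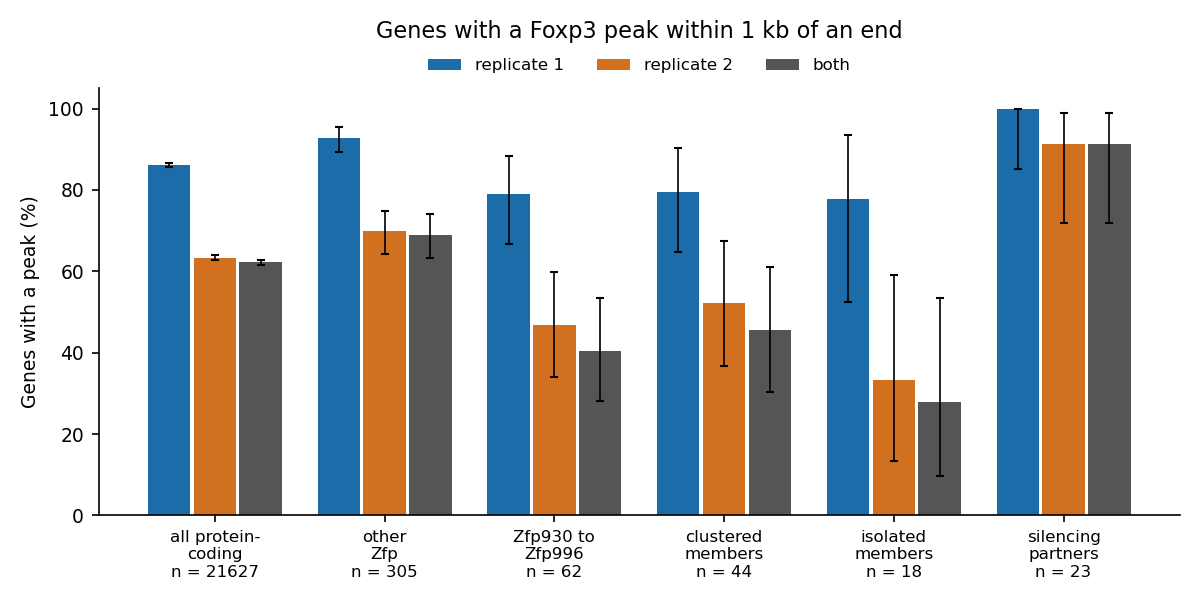
Share of genes with a peak within 1 kb of a gene end, in percent, in replicate 1, replicate 2 and both. The groups are all protein-coding genes, other Zfp genes, the members, their clustered and isolated genes, and the silencing partners described below. Columns are shares and the lines on them are 95% exact binomial intervals. The members' share for both replicates is 40.3%, against 68.9% of other Zfp genes and 62.2% of all genes.

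Where members had a site, fewer fragments lay over it than over the sites of other genes, while the fold enrichment differed less. The median pileup was 35 fragments in replicate 1, against 53 for other Zfp genes and 60 for all genes with a site, and 25 in replicate 2, against 33 and 34. The median fold enrichment of the 49 members with a site in replicate 1 was 9.26 (range 2.91 to 25.2), beside 10.5 for other Zfp genes and 10.1 for all genes with a site. In replicate 2 the 29 members had a median of 4.52 (range 2.87 to 10.2), beside 5.62 and 5.36. The mean of the 2 medians was 6.89 ± 3.35 (SD, n = 2). The denominators differed as well. The background term was raised above its genome-wide floor at 22.9% of the members' strongest peaks in replicate 1 and at 25% in replicate 2, where over all genes with a site it was raised at 72.9% and 67.9%. The fold enrichment of members was thus mostly set against the lowest background of each library.

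The strongest site among the members was that of Zfp963 on chromosome 8. Its fold enrichment was 25.2 in replicate 1 with a pileup of 177 fragments, and 9.42 in replicate 2 with a pileup of 47. The peak of replicate 1 spanned 69749570 to 69750000 and that of replicate 2 spanned 69749611 to 69749954, with summits 112 and 221 bp from the annotated start, so both reached into the end of the printed promoter. The mean fold enrichment was 17.3 ± 11.2 (SD, n = 2).

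On chromosome 4, Zfp978 and Zfp982 followed. Zfp978 had a fold enrichment of 16.99 in replicate 1 (pileup 120) and 10.2 in replicate 2 (pileup 156), the highest replicate 2 value of any member. Zfp982 had 17.7 (pileup 104) and 7.08 (pileup 60). The record of Zfp978 overlaps that of Zfp991, but the windows at their ends do not meet. The strongest Zfp978 peaks lay at the end of no other protein-coding gene.

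On chromosome 17, Zfp942 and Zfp943 are divergent neighbours with 56 bp between their records, and the same peak stood for both, with a fold enrichment of 10.6 in replicate 1 (pileup 39) and 7.07 in replicate 2 (pileup 35). It spanned 21962211 to 21962890 in replicate 1, and 21962132 to 21962985 in the other library, over the whole printed Zfp942 promoter. Zfp944 and its neighbour Zfp758, with 2 bp between them, form the copied pair, and their shared peak had 12.7 (pileup 47) and 5.89 (pileup 29). Both copies of this duplicated, CG-rich promoter carried a peak in each replicate, and fragments from the stretch they share cannot be assigned to 1 copy.

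Zfp939 on chromosome 7 had one of the largest differences between the replicates, with a fold enrichment of 21.1 (pileup 112) in replicate 1 and 5.50 (pileup 27) in replicate 2. The other members among the first 10 were Zfp991 (13.2 and 6.07), Zfp994 (13.0 and 5.50) and Zfp996 (8.19 and 6.41). At Zfp991 the strongest peaks lay at opposite ends of the gene in the 2 replicates. They overlapped at each of the other 9 of these genes.

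The weakest sites listed in both replicates were those of Zfp979 (10.4 and 3.30), Zfp945 (3.70 and 5.10), Zfp938 (4.76 and 4.12), Zfp983 (9.52 and 3.14) and Zfp992 (13.2 and 2.87). Zfp945 was the only one of the 25 with the higher value in replicate 2. Over the 25 genes the fold enrichment was 3.70 to 25.2 in replicate 1 (median 10.6), and replicate 2 gave 2.87 to 10.2 (median 5.10). The strongest peaks of the 2 replicates overlapped at 17 of the 25, and at 20 of them some pair of peaks in the windows overlapped by at least 1 bp. Those 20 are 32.3% of the members, against 57.9% of all genes by the same rule.

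**Figure D2:**
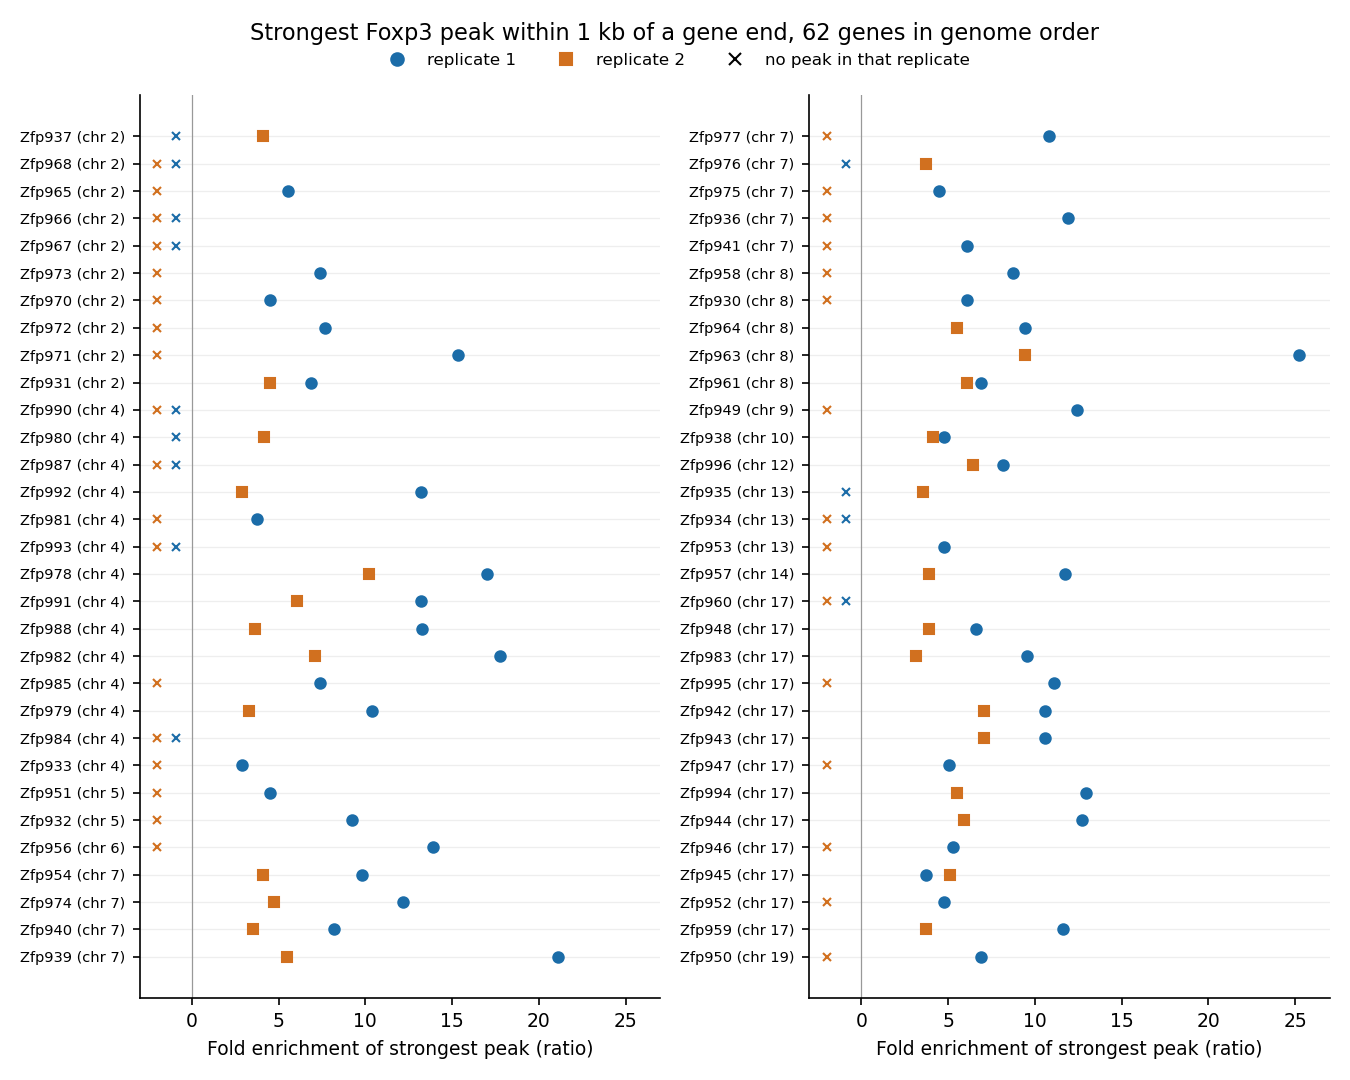
Fold enrichment (a ratio) of the strongest peak within 1 kb of a gene end for each of the 62 members in genome order, with circles for replicate 1, squares for replicate 2 and crosses left of 0 where no peak was listed. The highest circle is Zfp963 at 25.2 and the highest square is Zfp978 at 10.2; crosses in both colours mark the 9 genes without a site.

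The 24 members with a site in replicate 1 only had a lower median fold enrichment, 6.48 (range 2.91 to 15.3), than the 10.6 of those with a site in both, and a median pileup of 23.5 fragments (range 10 to 64) against 45. Among clustered members the medians were 5.55 and 11.4. The ranges of the 2 classes overlapped. Zfp971 led with 15.3 (pileup 57), followed by Zfp956 with 13.9 (pileup 64), Zfp949 with 12.4 and Zfp936 with 11.9. Zfp995 had 11.1, Zfp977 10.8, the retrovirus silencer Zfp932 9.26, Zfp958 8.73, Zfp972 7.67, and Zfp973 and Zfp985 7.41 each. These 11 are the strongest of the class. Of the 24, 10 had a replicate 2 peak elsewhere in the gene body or its flanks. At 2 of them, Zfp936 and Zfp981, that peak lay within 1 kb of an annotated start that stands over 1 kb inside the gene record.

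The 4 members with a site in replicate 2 only were Zfp980 (4.16), Zfp937 (4.12), Zfp976 (3.73) and Zfp935 (3.53), with pileups of 17 to 21 fragments. The smallest pileup in that list was 13 fragments, so these sites stood near the lower limit of calling. Each of the 4 had at least 1 replicate 1 peak in its gene body, and 1 of those at Zfp976 lay within 1 kb of an annotated start.

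No peak lay at a gene end in either replicate for Zfp934 on chromosome 13, Zfp960 on chromosome 17, Zfp966, Zfp967 and Zfp968 on chromosome 2, and Zfp984, Zfp987, Zfp990 and Zfp993 on chromosome 4. For 3 of the 9, Zfp966, Zfp967 and Zfp968, no peak of either replicate lay anywhere in the gene. The other 6 had replicate 1 peaks within the gene, between 3 at Zfp960, Zfp987 and Zfp990 and 72 in the 478623 bp record of Zfp993, and 4 of them also had replicate 2 peaks. Zfp984 had a peak of each replicate within 1 kb of its annotated start, 147809788, which lies over 1 kb inside its record, so its promoter is not without peaks. Absence here means that no peak passed the authors' threshold, with smallest pileups of 10 and 13 fragments.

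Counting the whole gene body with 1 kb on either side, 59 members had peaks in replicate 1 (95.2%, against 92.8% of all genes), 43 in replicate 2 (69.4%, against 77.8%) and the same number in both (69.4%, against 77.4% of all genes and 85.9% of other Zfp genes). The distance to all genes was 8.04 points, less than the 21.9 points at gene ends. Per length of gene and flanks, the members held fewer peaks, with a median over genes of 17.6 peaks per 100 kb in replicate 1 and 4.54 in replicate 2. All genes had 33.7 and 6.25, and other Zfp genes 30.8 and 7.17. The gene lengths of these groups were not compared, so this contrast is not matched for gene size. In windows 20 kb outside both ends, 14 members had peaks in both replicates (22.6%), against 21.9% of all genes.

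The members' sites lay mostly at transcription starts. For the 55 members whose promoter gave the strand, a peak lay within 1 kb of an annotated start at 45 in replicate 1 (81.8%, against 82.2% of all genes), at 27 in replicate 2 (49.1%, against 62.4%) and at 24 in both (43.6%, against 61.1%). Every annotated start of a gene was counted but only 1 far end, so some genes had more windows at their starts. At the far end of the gene the numbers were 11 (20%, against 54.0%), 5 (9.09%, against 15.9%) and 3 (5.45%, against 13.4%). In replicate 1 the members' share at the start was thus within 1 point of that of all genes, and the lower one was that at the far end. Of the 250 other Zfp genes with a strand, 94.4% had a replicate 1 peak at the start and 41.2% at the far end. In replicate 2 the members were below all genes at both ends.

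**Figure D3:**
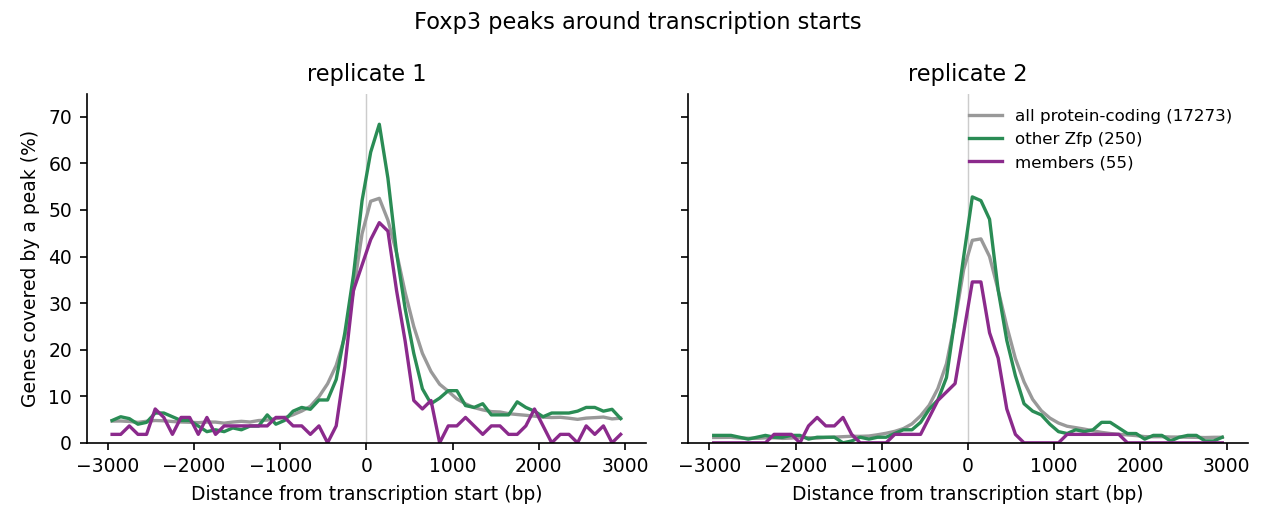
Share of genes (percent) with a peak over each position from 3000 bp before to 3000 bp after the annotated start, for the members, other Zfp genes and all protein-coding genes, in each replicate. The members' curve is highest at 47.3% in replicate 1 and 34.5% in replicate 2, below the maxima of other Zfp genes (68.4% and 52.8%) and of all genes (52.5% and 43.8%).

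The second question was whether clustered genes differ from isolated ones. Clustered members had a site in replicate 1 at 35 of 44 (79.5%) and isolated members at 14 of 18 (77.8%). In replicate 2 the numbers were 23 of 44 (52.3%) and 6 of 18 (33.3%). Both replicates had a site at 20 clustered members (45.5%, interval 30.4% to 61.2%) and at 5 isolated ones (27.8%, interval 9.69% to 53.5%), beside 62.2% of all genes. The difference of 17.7 points had an interval of -12.1 to 41.6 points, combined from the intervals of the 2 shares, which includes 0. That interval treats genes as independent, which genes of 1 cluster are not. A difference between clustered and isolated members was not established with these numbers, and none was tested. The isolated group also held 4 members, Zfp966, Zfp967, Zfp970 and Zfp973, with at least 90% of promoter words recurring. Each shared words with 24 or 25 other genes of chromosome 2, many under Gm symbols, so the name isolated may be wrong for them. None of these 4 had a site in replicate 2, and their distance to those genes was not measured. Among the other Zfp genes the order was the opposite, with sites in both replicates at 104 of 168 clustered genes (61.9%) and 106 of 137 isolated ones (77.4%).

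Among members with a site in both replicates, fold enrichment at the 20 clustered ones had medians of 11.4 and 5.50 in the 2 replicates, and the 5 isolated ones, Zfp938, Zfp945, Zfp957, Zfp959 and Zfp996, had 8.19 and 4.12. The isolated genes' values, 3.70 to 11.7 in replicate 1 and 3.73 to 6.41 in replicate 2, fell inside the range of the clustered ones apart from the 3.70 of Zfp945 and the 4.76 of Zfp938 in replicate 1. The count depended on how a cluster was defined. With at least 3 neighbours required, the counts were 12 of 18 and 13 of 44, a difference of 37.1 points, and with 500 kb in place of 100 kb the difference was 3.24 points. Without members whose promoter recurs elsewhere (below) it was -5.00 points, at 9 of 20 clustered and 4 of 8 isolated genes.

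The cluster with the most members lies on chromosome 4 between 147124882 and 147849126, where 8 of 9 Zfp genes are members. Of these, Zfp978, Zfp991, Zfp988, Zfp982 and Zfp979 had a site in both replicates, Zfp985 and Zfp933 in replicate 1 only, and Zfp984 in neither at its gene ends, though in both at its annotated start. Zfp988 had a fold enrichment of 13.2 and 3.66, and the 2.91 of Zfp933 (pileup 10) was the lowest replicate 1 value of any member. The next largest lies on chromosome 17 between 21383707 and 21994366, with 5 members among 13 Zfp genes. There Zfp948 (6.61 and 3.93), Zfp983, Zfp942 and Zfp943 had a site in both replicates and Zfp995 in replicate 1 only. In both clusters members with and without sites in replicate 2 stood side by side.

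The density of peaks around the genes differed between 3 long runs of members. From Zfp990 to Zfp933 on chromosome 4 (145510759 to 147849126), 9 of 14 members had a site in replicate 1, 7 in replicate 2, 6 in both and 4 in neither. Over all protein-coding genes those shares were 86.1%, 63.3%, 62.2% and 12.8%, and they stand beside each run below as well. With so few members per run, no difference from these shares was tested. Replicate 2 had 110 peaks per Mb in the chromosome 4 run, 3.06 times its genome mean, while replicate 1 had 216, 1.02 times its mean. The background used in the fold enrichment was raised above its genome-wide floor for 80.6% of the replicate 2 peaks in that run, against 37.2% genome-wide. Zfp978 had the highest replicate 2 background of any member, 15.4 fragments where the floor was 5.09, so its pileup of 156 gave a fold enrichment of only 10.2. Whether this dense signal bears on the sites of these members was not tested.

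From Zfp968 to Zfp931 on chromosome 2 (175372034 to 178078425) the picture was the reverse. Of 9 members, 6 had a site in replicate 1, 1 in replicate 2 (Zfp931, 6.88 and 4.52) and 3 in neither. Peaks were sparse, at 65.4 per Mb in replicate 1 (0.310 times the genome mean) and 8.13 per Mb in replicate 2 (0.226 times). Of the 17 other protein-coding genes inside the run, 14 had a site in replicate 1 and 3 in both. From Zfp948 to Zfp946 on chromosome 17 (21565816 to 22456689) all 9 members had a site in replicate 1 and 6 in both, beside 86.1% and 62.2% of all genes. Peak density in that run was 0.665 and 0.779 times the mean in the 2 replicates.

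The chromosome 2 run is also where promoters are copies of each other. The share of each promoter's 50-base words that occur in the promoter of another gene was measured, since fragments from identical sequence cannot be assigned to 1 copy. At least 1 such word was found in 27 of the 55 members with a promoter (49.1%), against 8.57% of all genes and 4.80% of other Zfp genes. In 6 members, Zfp965, Zfp966, Zfp967, Zfp968, Zfp970 and Zfp973, all on chromosome 2, at least 90% of the words recurred. Of these, 3 had a site in replicate 1 and none of the 6 had one in replicate 2. Over all genes with so many recurring words the shares were low too, at 55.1% in replicate 1, 17.96% in replicate 2 and 16.8% in both.

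Genes with near-identical promoters differed in their listed sites. Zfp968 and Zfp973, which differ at A106G alone, had no site and a replicate 1 site of 7.41 (pileup 27), respectively. The Zfp973 peak ran from 176670682 to 176670895, past the end of the printed promoter. Zfp965 and Zfp971 differed at 9 of 300 positions and had 5.55 and 15.3 in replicate 1, with none in replicate 2. The peaks of Zfp965 and Zfp971, starting at 175470145 and 178023414, also began past the ends of the compared promoters. How alike the sequence under these peaks is was not measured. Zfp966 and Zfp967, identical over the printed promoter, both had none. The sources used here do not give how fragments that match several places were treated.

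In the counts, the order of members and other genes differed between genes without and with recurring words. Of the 28 members without any, 13 had a site in both replicates (46.4%, interval 27.5% to 66.1%). Among all genes without such words the share was 65.9%, inside that interval, and among other Zfp genes it was 70.6%, above it. Of the 27 members with at least 1 recurring word, 9 had a site in both replicates (33.3%), for which no interval was computed. The shares there were 20.9% of all genes and 25% of the 12 other Zfp genes. By share alone, members were thus below the other groups without recurring words and above them with at least 1. With so few genes, a change of order beyond counting error was not established. At 90% or more recurring words members were again below, with 0 of 6 members, 16.8% of all genes and 1 of 3 other Zfp genes. The genes with recurring words were not matched in CG, with medians of 6 for members, 2 for all genes and 8.5 for other Zfp genes. The difference between these strata was not tested.

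**Figure D4:**
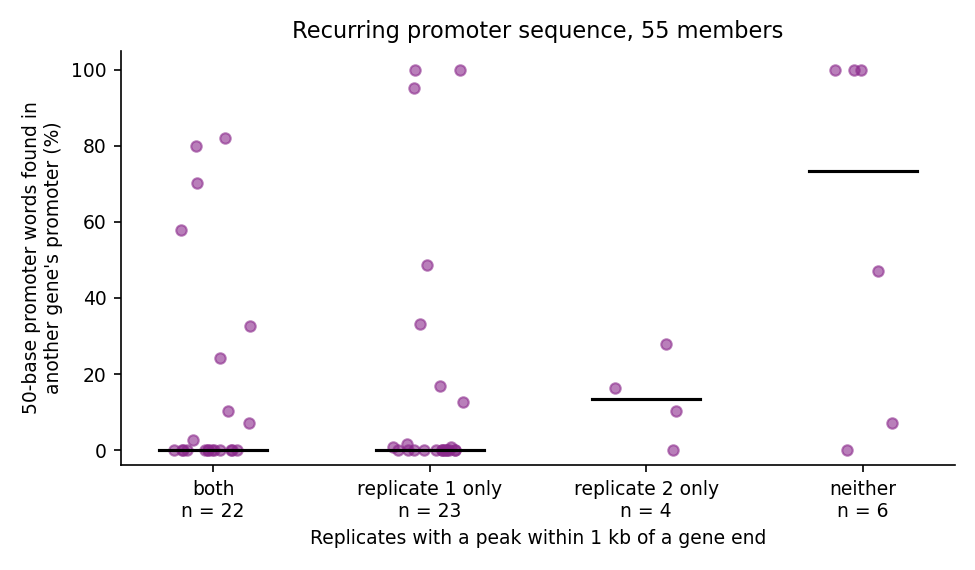
Share of each member's promoter words of 50 bases that occur in the promoter of another gene (percent), by class of site, with 1 point per member with a promoter. The median is 0% for members with a site in both replicates and for those with a site in replicate 1 only, 13.3% for replicate 2 only and 73.5% for neither.

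The members' promoters were also poor in CG. The median was 8 CG per 300 bases, against 15 in other Zfp genes and 14 in all genes, and 67.3% of members had 9 or fewer, against 42.1% of all genes. By class the median was 10.5 for members with a site in both replicates, 6 for replicate 1 only, 8 for replicate 2 only and 5 for neither. Over all genes the share with a site in both replicates rose with the CG count, from 20.2% at 0 to 4 CG through 48.2% at 5 to 9 and 71.7% at 10 to 14 to 81.8% at 15 to 19 and 90.9% at 20 or more.

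Within these ranges the members were 3 of 11 (27.3%), 6 of 26 (23.1%), 5 of 9 (55.6%), 2 of 3 (66.7%) and 6 of 6 (100%). The range of 5 to 9 CG, which holds the most members, was the one where they lay furthest below all genes. Other Zfp genes had 52.8% there (28 of 53). Among genes with 9 or fewer CG and no recurring word, 5 of 16 members (31.3%), 32.6% of all genes and 50% of other Zfp genes (31 of 62) had a site in both replicates. The subset is not matched in CG, with medians of 6.5 for members, 3 for all genes and 7 for other Zfp genes. The strongest site, Zfp963, was itself at a promoter with only 9 CG.

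**Figure D5:**
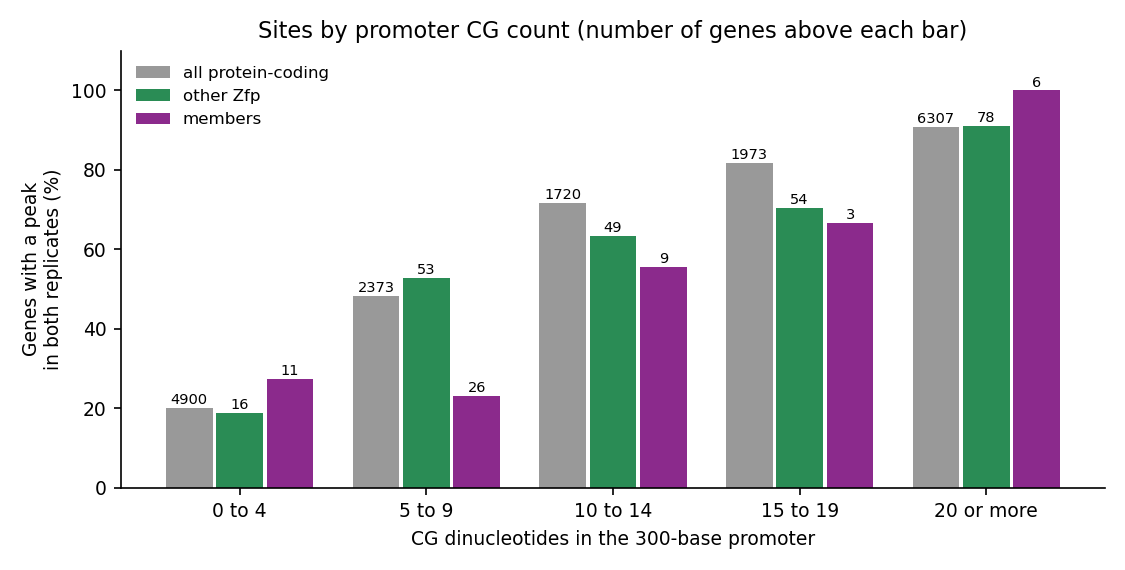
Share of genes with a site in both replicates (percent) by the number of CG in the 300-base promoter, for members, other Zfp genes and all protein-coding genes. The number of genes stands above each column, and no intervals are drawn. All genes go from 20.2% at 0 to 4 CG to 90.9% at 20 or more, and the members from 27.3% (3 of 11) to 100% (6 of 6).

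Forkhead proteins bind words such as TGTTTAC or the close variant TGTTTGC, and Foxp3 is also known to bind repeats, for which the word TTTGTTTGTTTG was taken. Both strands of the 63 listed promoters of the members were searched for these 3 words, of which the last 2 overlap in their letters. No promoter of a member held any of them, and 0 of 63 allows a share of up to 4.76%, taken as 3 of 63. Over the 21044 promoters of all genes the shares of the single words were 3.03%, 4.62% and 0.518%, each under that limit. Over the 305 promoters of other Zfp genes they were 0.984%, 4.26% and 0.984%. The share of promoters with any of the 3 words was not counted and may exceed the limit. The limit also takes promoters as independent, which copies are not. The search covered 300 bases per promoter, and many peaks extend beyond that.

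Genes of the machinery through which KRAB zinc finger proteins act mostly had sites in both replicates. A list of 23 genes of this silencing machinery, with Trim28, Setdb1, heterochromatin proteins, DNA methyltransferases, H3K9 methyltransferases and subunits of the HUSH complex, had a site in replicate 1 at 23 genes, in replicate 2 at 21 and in both at 21 (91.3%, interval 72.0% to 98.9%), beside 62.2% of all genes. The strongest were Morc3, a nuclear ATPase of the MORC family (15.6 and 9.31), Trim28 (17.6 and 6.77, at an end shared with Gm31649) and Atf7ip, a binding partner of Setdb1 (11.3 and 9.42). Dnmt3a, a de novo DNA methyltransferase (4.33), and Tasor, a HUSH subunit (6.69), had a peak at a gene end in replicate 1 only. Counted at annotated starts, all 23 genes had a peak in both replicates, these 2 included, against 61.1% of all genes. The CG counts of this list's promoters were not compared. Over all genes with 20 or more CG, 90.9% had a site in both replicates. The difference between this list and the members was not tested, since genes are not replicates.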

How the data were processed

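The deposited peak lists of 2 Foxp3 libraries were used, and the IgG library was not used here. The submitters' processing notes name CASAVA 1.4 and the build mm10, and no aligner is given in the sources used here. The authors called peaks on each library with MACS 2.1.1.20160309, per the file headers, paired-end, at a q-value of 0.01 and a genome size of 1.87e+09 bp, with no control library and all duplicates kept. Sites cut under any antibody, and heavily amplified fragments, can thus appear as peaks. The pileup deposited by the authors is a signal, fragments at the summit, not scaled to depth. Fold enrichment deposited by the authors is the ratio of pileup plus 1 to a background term from the same library. The significance deposited by the authors is −log10 of a p-value and of a q-value. Replicate 1 has a larger list (smallest pileup 10, against 13), so weaker sites can be listed there.

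Gene positions came from RefSeq GRCm38.p6, and strand, starts and promoters from a RefSeq table of the same assembly (17273 protein-coding genes matched). The planned use of protein sequences to find zinc finger neighbours was not made, and neighbours were defined by symbol alone. Peaks were assigned to windows of 1000 bp with Python 3.11.15, pandas 2.3.3 and scipy 1.17.1, and tested on simulated peaks (200 of 200 planted overlaps found). The members and lists were chosen with earlier results of these data known. Named are the 10 strongest and 5 weakest members with a site in both replicates (by mean within-list percentile of fold enrichment), all with a site in neither or in replicate 2 only, the 10 strongest in replicate 1 only with ties, the 2 clusters with most members, and the 3 strongest silencing partners and those without a site in both. Genes named for their promoters were chosen after their values were seen. Alternatives covered windows, thresholds, overlap rules, list depth, cluster definitions and each replicate alone.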

Additional observations from a re-analysis of the deposited data

How the results depend on the processing

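The counts of members with a site in both replicates (25), of clustered ones (20) and of isolated ones (5) moved by over 1.5 times under several settings. Windows of 5000 bp gave 41 members (66.1%, against 78.9% of all genes) and 34 clustered ones (77.3%), and the whole gene body gave 43 (69.4%, against 77.4%), 32 and 11. Windows of 500 bp gave 2 isolated members. Requiring peaks to overlap by 50% of both lengths gave 15 members (24.2%, against 43.7% of all genes) and 1 isolated one. The isolated count was 3 with a 1 bp overlap, with −log10 q of at least 5, with the strongest replicate 1 peaks by −log10 q or by fold enrichment, and with a clustering distance of 500 kb (chosen after seeing the data). At 500 kb only 8 members were isolated, so that share (37.5%) was above the main 27.8%. With at least 3 neighbours required, 12 clustered and 13 isolated members had a site in both. Among members without recurring promoter words (also chosen after seeing the data) 13 of 28 members (46.4%) and 9 of 20 clustered ones (45.0%) had a site. The main shares were 40.3% and 45.5%, so these lower counts came with fewer genes and not with lower shares of that size. The clustered minus isolated difference turned to -5.00 points in that subset. Under the other alternatives that difference kept its sign, from 1.77 to 38.4 points.

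Leaving out 1 replicate gave 29 to 49 members, 23 to 35 clustered and 6 to 14 isolated ones, a difference of 1.77 to 18.9 points and a median fold enrichment of 4.52 to 9.26. The larger counts are those without replicate 2. The members' share was below that of all genes in all 13 settings compared, by 7.07 to 25.6 points, and the share of all genes lay above the members' interval in 11 of them, the exceptions being the whole gene body and replicate 1 alone. The counts of other Zfp genes and silencing partners stayed within 1.5 times of the main ones in all settings run. Counting neighbours by symbol was already the main setting, so that alternative was not run separately. No paired analysis was possible because only 1 group had values. With 18 isolated members, and peaks listed only above 10 or 13 fragments, small differences and weak sites were out of reach.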
